A study of Mus musculus with 10 samples.

Results

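Interstitial collagens form the fibres and the pericellular meshwork of visceral white adipose tissue (WAT), and their transcripts were followed here in 10 mRNA-seq libraries from Mof+/+ and Mof+/- mice on standard diet (SD) or high-fat diet (HFD). The 8 genes, chosen by symbol, were Col1a1 and Col1a2 (type I), Col3a1 (type III), Col5a1 and Col5a2 (type V), and Col6a1, Col6a2 and Col6a3 (type VI), out of 47937 genes listed. By the sample labels all mice were C57BL/6. On SD there were 3 Mof+/+ and 3 Mof+/- libraries from mice 8 weeks old. On HFD there were 2 libraries of each genotype, from mice 27 weeks old after 20 weeks of HFD by the series' description, and other sources give a longer time on HFD. Diet and age therefore cannot be told apart. Mof encodes the histone H4 lysine 16 acetyltransferase, and Mof+/- mice carry 1 inactive copy in every tissue. Each library was whole tissue, so fewer cells of a type and less RNA per cell cannot be told apart.

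Types I, III and V assemble into the fibrils that give tissue its tensile strength. Type I and type III make up most of the fibril mass, and type V sits inside the fibril and sets its diameter. Type VI forms beaded microfilaments around adipocytes and other cells, and its units can be built from the products of Col6a1, Col6a2 and Col6a3. In fat these chains are made chiefly by fibroblasts and adipocyte progenitors, and in part by adipocytes, and the interstitial matrix is known to be remodelled as fat expands.

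On GRCm38, Col6a1 (ENSMUSG00000001119.7) spans chr10:76708792-76726168 and Col6a2 (ENSMUSG00000020241.13) chr10:76595762-76623630, both on the minus strand and 85161 bases apart. Col3a1 (ENSMUSG00000026043.18, chr1:45311538-45349706, plus strand) and Col5a2 (ENSMUSG00000026042.16, chr1:45374321-45503282, minus strand) face each other across 24614 bases. Col6a3 (ENSMUSG00000048126.16, chr1:90765923-90843971, minus strand), Col1a1 (ENSMUSG00000001506.10, chr11:94936224-94953042, plus strand), Col1a2 (ENSMUSG00000029661.16, chr6:4504814-4541544, plus strand) and Col5a1 (ENSMUSG00000026837.15, chr2:27886425-28039514, plus strand) lie apart from the other members. The exons of Col5a1 share 99 and 113 bases with 2 antisense transcripts, 2810430I11Rik and Gm13372, whose reads cannot be told from its own without strand. Col3a1 shares 141 exonic bases with a small RNA gene, Gm47302, on its own strand.

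The sequences before the type VI genes are shown because Col6a1 and Col6a2 went together across libraries and Col6a3 did not. Each is the 120 bases just upstream of the annotated gene start, from RefSeq promoter sequences on GRCm38.p6, at chr10:76726169-76726288, chr10:76623631-76623750 and chr1:90843972-90844091, minus strand, with capitals for a motif that was found.
Col6a1: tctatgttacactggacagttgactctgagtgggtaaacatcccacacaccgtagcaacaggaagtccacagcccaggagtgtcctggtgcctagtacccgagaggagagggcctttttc
Col6a2: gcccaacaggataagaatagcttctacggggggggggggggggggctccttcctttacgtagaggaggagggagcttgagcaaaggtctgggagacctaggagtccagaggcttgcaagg
Col6a3: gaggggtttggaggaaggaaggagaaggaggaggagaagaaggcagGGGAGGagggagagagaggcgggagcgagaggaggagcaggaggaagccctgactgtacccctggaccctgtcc
The letters searched on both strands were GGGCGG for the GC box, which occurred in 36.3% of the 13761 windows of this kind, and CCAAT for the box of that name, in 25.1%. The TATA box was searched as TATAAA, found in 5.74% of windows, and the CT element as CCTCCC, found in 27.7%. None of the 4 motifs contains another. The windows of Col6a1 and Col6a2 held none of them, and that of Col6a3 held 1 CT element on the opposite strand. Windows were found for 5 of the 8 members. Of the remaining members with one, Col3a1 held the letters TATAAA, near the end of its window farthest from the gene start. Col5a1 held a GC box and a pair of CT elements.

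Total counts on genes ranged from 6724618 to 17171947 in the SD libraries and were 15483115 and 16014992 in HFD Mof+/+. In the libraries labelled HFD Mof+/- they were 1044355 (replicate 1) and 5531786 (replicate 2). HFD Mof+/- replicate 1 also stood apart in content, since mitochondrial genes took 26.9% of its counts, against 1.79% to 8.82% elsewhere, and 10 skeletal muscle markers summed to 58200 CPM (counts scaled to a total of 1000000 counts on genes), against 1460 in replicate 2 and 49.4 to 117 elsewhere. Kat8, the symbol of Mof, was at 20.4 to 21.5 CPM in SD Mof+/+ and at 12.2, 18.8 and 11.5 CPM in SD Mof+/-. It was at 18.1 and 19.2 CPM in HFD Mof+/+ and at 20.1 (21 counts) and 10.5 CPM in HFD Mof+/-. SD Mof+/- replicate 2 thus lay below all 3 SD Mof+/+ libraries but nearer to them than to the other SD Mof+/- libraries. HFD Mof+/- replicate 1 lay above both HFD Mof+/+ libraries, with an exact 95% counting interval of 12.4 to 30.7 CPM that includes both. Genotypes below are those of the labels. The column headings inside the files give the opposite genotype for the replicate 3 libraries on SD, where Kat8 went with the labels (20.4 and 11.5 CPM). Xist had 0 counts in all libraries but the 3 labelled SD Mof+/- (46.1 to 139 CPM), and 4 Y-linked genes had 0 counts in these 3 and summed to 77.6 to 225 CPM in the others. The study's methods describe the WAT donors as male, which the values of the SD Mof+/- libraries go against. Sex and genotype on SD, and sex and diet in Mof+/-, therefore cannot be told apart, and the interaction holds the same difference in sex. All 8 mature adipocyte markers were above 0 in every library. Nothing in the labels says which libraries share a litter, and p-values measure the spread between these libraries.

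Together the 8 genes took about the same share of counts in most libraries. The share was 0.578%, 0.482% and 0.484% in SD Mof+/+, and 0.694%, 0.516% and 0.308% in SD Mof+/-. In HFD Mof+/+ it was 0.469% and 0.498%, and in HFD Mof+/- it was 0.15% (95% exact Clopper-Pearson interval 0.142% to 0.157%, for counting error only) and 0.464%. The summed level was 5146 ± 546.1 CPM (SD, n = 3) in SD Mof+/+, 5059 ± 1934 (n = 3) in SD Mof+/-, 4833 ± 205.1 (n = 2) in HFD Mof+/+ and 3066 ± 2220 (n = 2) in HFD Mof+/-. The Mof+/- groups spread more widely. The highest library was 2.26 times the lowest on SD and 3.1 times on HFD, against 1.2 and 1.06 times in Mof+/+. Their libraries also differed more in total counts. SD Mof+/- had 6724618 to 17171947 against 7301119 to 7829250 in SD Mof+/+, and HFD Mof+/- had 1044355 and 5531786 against 15483115 and 16014992. The part of this in the spread was not tested. The lowest library, HFD Mof+/- replicate 1, was also lowest when mitochondrial genes and the skeletal muscle markers were left out of the totals, at 2222 CPM, with the next lowest, SD Mof+/- replicate 3, at 3174.

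**Figure D1:**
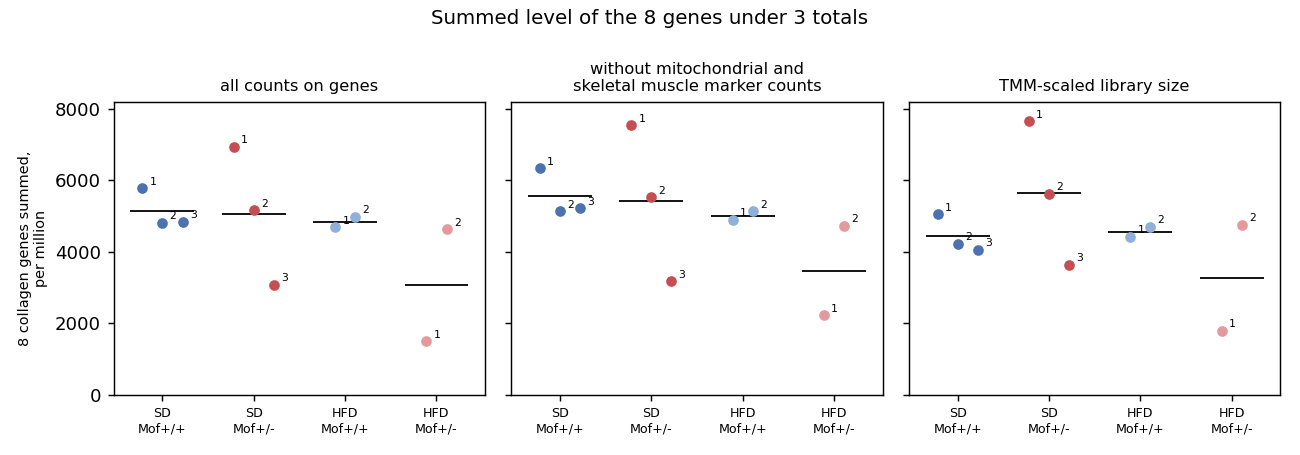
Summed level of the 8 collagen genes in each library (y axis, CPM), with all counts on genes as the total, without mitochondrial and skeletal muscle genes, and with TMM scaling, with points numbered by replicate and a line at the group mean. HFD Mof+/- replicate 1 is lowest in all 3 panels, at 1496, 2222 and 1788, and SD Mof+/- replicate 1 is highest, at 6941, 7548 and 7656.

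Per kilobase of merged exons, Col3a1 was the most abundant of the 8 in SD Mof+/+, at 202.9 ± 25.4 CPM per kilobase (SD, n = 3), followed by Col6a1 at 118.8 ± 13.5. Neither overlapped the next gene in the order. Col1a1 (76.0 ± 10.7), Col1a2 (74.0 ± 12.8) and Col6a2 (58.2 ± 1.89) followed, and each overlapped its neighbour. The lowest were Col5a1 (31.2 ± 6.58), Col5a2 (22.9 ± 3.11) and Col6a3 (20.5 ± 1.68), again with overlap between neighbours. Col3a1 and Col6a1 were first and second in the means of each of the 4 groups, and Col5a1, Col5a2 and Col6a3 took the last 3 places. The place of Col1a2 depends on its length, since its merged exons (12426 bases) are far longer than its longest transcript (5348 bases). By the longest transcript, Col1a2 came second in SD Mof+/+, at 172 ± 29.6 CPM per kilobase, after Col3a1 at 357.9 ± 44.9.

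**Figure D2:**
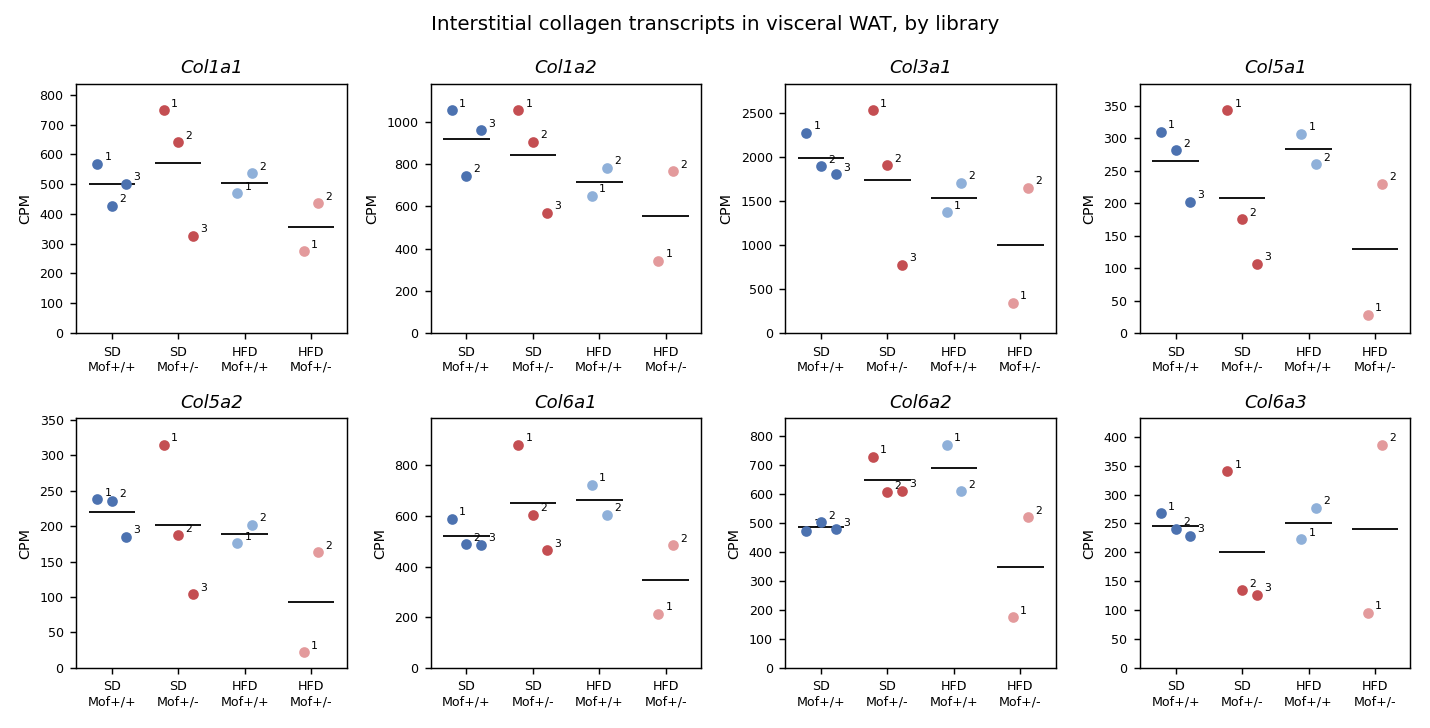
CPM of each gene in each library (y axis from 0, a scale for each gene), with points numbered by replicate and a line at the group mean. Col6a2 in SD Mof+/- (605.1 to 728.9) lies above SD Mof+/+ (473.5 to 502.5), and HFD Mof+/- replicate 1 is the lowest library for all 8 genes.

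Between genotypes on SD, the type VI pair Col6a1 and Col6a2 had the highest fitted values of the 8 genes, and none of the 8 passed the test. Col6a2 was at 473.5, 502.5 and 477.7 CPM in SD Mof+/+ and at 728.9, 605.1 and 610.3 CPM in SD Mof+/-. Every SD Mof+/- library lay above every SD Mof+/+ library. Its log2 fold change was 0.78 ± 0.22 (SE), a 1.71-fold difference (95% interval 1.21 to 2.43), with an adjusted p of 0.0723 by edgeR's quasi-likelihood test with Benjamini-Hochberg adjustment. DESeq2 gave the same size with an adjusted p of 0.00123, and the adjusted p ranged from 0.00123 to 1.0 over 16 alternatives, of which 2 were below 0.05. The value of 1.0 came from grouping by the column headings, under which Col6a2 differed by 0.22 on the log2 scale.

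Col6a1, whose product joins those of Col6a2 and Col6a3 in one unit, was at 588.6, 487.3 and 485.7 CPM in SD Mof+/+ and at 879.7, 604.4 and 464 CPM in SD Mof+/-. In CPM the groups overlapped, since Mof+/- replicate 3 was the lowest of the 6 libraries. With TMM, edgeR's trimmed mean scaling, over the 10 libraries they did not. The scaled values were 406.5 to 515.2 in SD Mof+/+ and 547.3 to 970.4 in SD Mof+/-. The log2 fold change was 0.66 ± 0.27, with an adjusted p of 0.168 (edgeR). Col6a3, which encodes the largest chain of type VI, was at 267.8, 240.9 and 228.4 CPM in SD Mof+/+ and at 340.1, 133.9 and 126.3 CPM in SD Mof+/-. Here Mof+/- replicate 1 lay above all Mof+/+ libraries and the other 2 lay below them. Its log2 fold change of 0.04 ± 0.37 came with an adjusted p of 0.953 (edgeR), and the interval ran from 0.577-fold to 1.84-fold.

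The fibrillar genes overlapped between genotypes on SD. Col1a1 was at 568.5, 427.6 and 500.4 CPM in SD Mof+/+ and at 747.6, 640.3 and 325.7 CPM in SD Mof+/- (log2 fold change 0.54 ± 0.31, adjusted p = 0.312 by edgeR). Col3a1 was at 2275, 1895 and 1805 CPM in SD Mof+/+ and at 2531, 1907 and 772.2 CPM in SD Mof+/- (0.13 ± 0.38, adjusted p = 0.854 by edgeR). In the CPM of both, Mof+/- replicate 1 was the highest and replicate 3 the lowest of the 6. Col1a2, Col5a1 and Col5a2 had log2 fold changes of 0.22, -0.014 and 0.21 with adjusted p from 0.662 to 0.986 (edgeR). In the CPM of each of them Mof+/- replicate 3 was again the lowest of the 6. With TMM scaling, SD Mof+/+ replicate 2 was lowest in Col1a1 and Col1a2 instead. It was at 375.9 and 655.1, against 384.2 and 670.8 in Mof+/- replicate 3.

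By edgeR 0 of the 8 genes passed the threshold of 0.05 on SD, where 5.24% of the 13864 genes tested did, and 2 had an unadjusted p below 0.05, where 25.7% of all genes did. DESeq2 called Col6a2 alone, against 15.9% of all genes. In 1 of the 8 the CPM values did not overlap, against 40.3% of all genes. The median log2 fold change of the 8 was 0.22, against -0.07 over all genes tested. Without SD Mof+/- replicate 1, 4 of the 8 were positive and 4 negative (median -0.07 against -0.15), and without SD Mof+/- replicate 3 the median was 0.49 against -0.05. With counts scaled to library totals in place of TMM (edgeR's trimmed mean scaling), the median of all genes moved to -0.43 and that of the 8 to -0.13, and Col1a2, Col3a1, Col5a2 and Col6a3 then fell on the lower side. Gene length moved with the groups, too. The correlation (Spearman rho) between a gene's merged exon length and a library's deviation from the mean of the 10 libraries was 0.28, 0.31 and 0.23 in SD Mof+/+ and 0.08, -0.15 and -0.29 in SD Mof+/-. With offsets for length and GC content, all 8 genes were on the higher side in Mof+/-, with a median of 0.65, and Col6a2 was called (1.22, adjusted p = 0.0338, edgeR) where 1.95% of all genes were. The 10 markers of adipose progenitors or fibroblasts summed to 13300 to 14800 CPM in SD Mof+/+ and 14400 to 17100 in SD Mof+/-, with 2 called higher and none at 0. The 8 endothelial markers summed to 1310 to 2950 and 356 to 495 CPM, with 5 called lower and none at 0. The 8 mesothelial markers summed to 24.1 to 119 and 209 to 362 CPM, with 4 called higher, and the 8 mature adipocyte markers to 24600 to 36300 and 39900 to 47600 CPM, with 3 called higher and none at 0. Of the 8 glial or myelin markers (136 to 1050 and 62.6 to 86.4 CPM) 5 were tested and 2 called lower, and up to 4 were at 0 in a library. The 8 mural or smooth muscle markers summed to 1250 to 1610 CPM in SD Mof+/+ and to 773, 3770 and 7680 CPM in SD Mof+/- replicates 1, 2 and 3. Of these markers 6 had positive fitted values (median log2 fold change 2.56), 2 were called lower, none was called higher and none was at 0. Replicate 3 was also the SD library with the lowest collagen sum. The part of the markers in the collagen values was not tested.

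**Figure D3:**
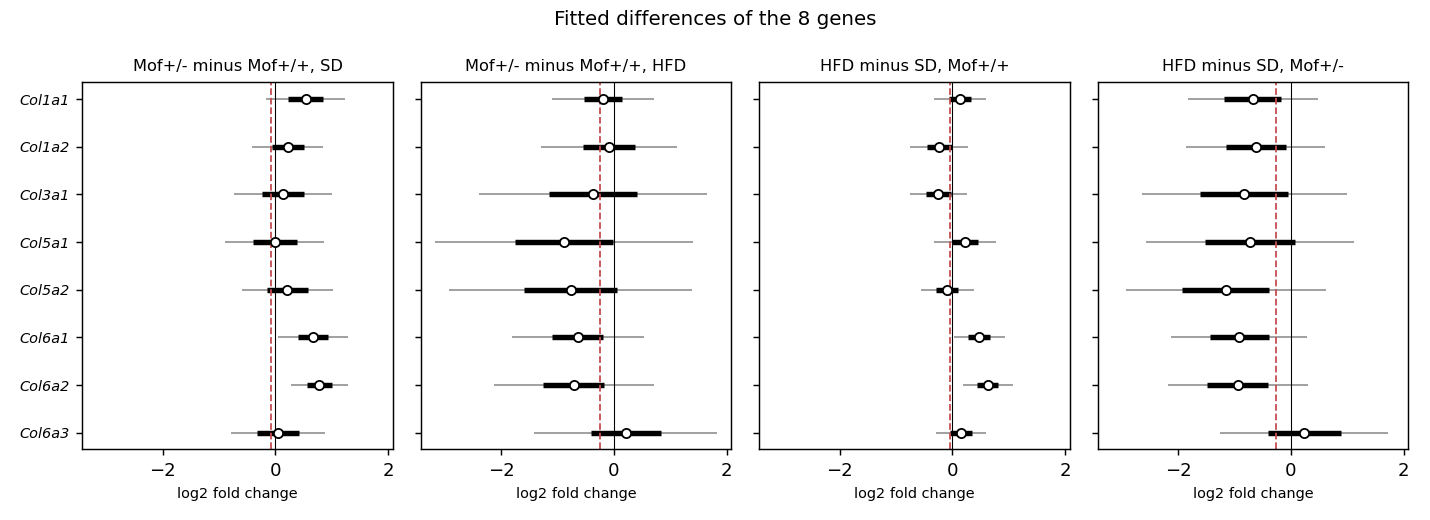
Log2 fold changes of the 8 genes in the 4 comparisons (x axis), with thick bars for the SE, thin bars for the 95% interval and a dashed line at the median of all genes tested. Of the 32 intervals, only those of Col6a1 and Col6a2 on SD and in Mof+/+ between diets lie clear of 0, and the intervals that involve HFD Mof+/- are the widest.

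Between genotypes on HFD, 0 of the 8 genes were called by edgeR, where 0.0% of 14120 genes were, and 0 of the 8 had an unadjusted p below 0.05, where 12.3% of genes did. DESeq2 called 0 of the 8 and 1.48% of all genes. The fitted values were negative for 7 of the 8, with a median of -0.51 against -0.24 over all genes. Without HFD Mof+/- replicate 1, 5 of the 8 were negative, with a median of -0.04 against -0.23. Col5a1, whose product shapes fibril diameter, was at 307 and 259.9 CPM in HFD Mof+/+ and at 27.8 and 229.9 CPM in HFD Mof+/- (log2 fold change -0.89 ± 0.88, adjusted p = 0.817, edgeR). Col5a2, its type V partner, was at 175.9 and 202 CPM in HFD Mof+/+ and at 22.0 and 163.2 CPM in HFD Mof+/- (-0.77 ± 0.83, adjusted p = 0.834, edgeR). In both genes the low value of the group was that of replicate 1, where they rested on 29 and 23 counts.

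Col6a2 was at 768.3 and 608.7 CPM in HFD Mof+/+ and at 174.3 (interval 149.9 to 201.5) and 519.5 CPM in HFD Mof+/- (-0.71 ± 0.54, adjusted p = 0.747, edgeR). Col6a3 was at 222.7 and 277.6 CPM in HFD Mof+/+, between the values of 95.8 and 385.8 CPM in HFD Mof+/-. In CPM both HFD Mof+/- libraries lay below both HFD Mof+/+ libraries in Col1a1, Col5a1, Col5a2, Col6a1 and Col6a2, which is 5 of the 8. Over all 14120 genes 54.4% did not overlap, with 6435 lower and 1246 higher in Mof+/-. With TMM scaling over the 10 libraries, Col1a1 (443.1 and 506.3 against 328.5 and 448) and Col5a2 (166 and 190.7 against 26.3 and 167.8) overlapped. Col1a1 was at 469.7 and 536.3 CPM against 274.8 and 435.8, and Col6a1 at 723 and 605.3 CPM against 212.6 and 483.9. Col3a1 (1370 and 1706 CPM against 346.6 and 1652) and Col1a2 (651.4 and 781.4 CPM against 341.8 and 765.4) overlapped.

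The HFD comparison rested on which Mof+/- library was used. Without replicate 2, which leaves the shallow replicate 1 alone and assumes that it varies like the Mof+/+ pair, Col3a1, Col5a1, Col5a2, Col6a1, Col6a2 and Col6a3 were called lower, by 0.99 to 2.96 on the log2 scale, where 47.9% of all genes were called. In that fit the median was -1.42 over the 8 genes and -1.48 over all genes. Without replicate 1, which leaves replicate 2 alone and takes the spread from the Mof+/+ pair, Col6a3 had the highest value of the 8. It was at 0.79, higher in Mof+/-. Col6a3 therefore pointed in opposite directions in the 2 HFD Mof+/- libraries, at -0.99 for replicate 1 and 0.79 for replicate 2. Col5a1 and Col5a2 came to -0.13 and -0.04 without replicate 1. Fibroblast markers summed to 7860 and 7950 CPM in HFD Mof+/+ and to 3360 and 15400 CPM in HFD Mof+/- replicates 1 and 2, and 2 of the 10 had 0 counts in replicate 1. All 10 skeletal muscle markers were above 0 in both HFD Mof+/- libraries. Macrophage markers summed to 4000 and 5100 CPM in HFD Mof+/+ and to 1160 and 1990 CPM in HFD Mof+/- replicates 1 and 2, and mural markers to 793 and 546 and to 2250 and 861 CPM, with 0 of 8 and 0 of 7 tested called by edgeR and 3 and 1 at an unadjusted p below 0.05. Their part in these values was not tested.

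Between diets in Mof+/+, Col6a2 and Col6a1 again had the highest fitted values. HFD Mof+/+ libraries had 768.3 and 608.7 CPM of Col6a2 against 473.5 to 502.5 on SD, and 723 and 605.3 CPM of Col6a1 against 485.7 to 588.6. In both genes every HFD library lay above every SD library. The log2 fold change of Col6a2 was 0.63 ± 0.19 (1.55-fold, 95% interval 1.14 to 2.1) with an adjusted p of 0.0773 (edgeR), and that of Col6a1 was 0.48 ± 0.19 with an adjusted p of 0.161 (edgeR). DESeq2 called both, at adjusted p of 0.00246 and 0.047, where it called 20.0% of all genes. This comparison and that of the genotypes on SD share the 3 SD Mof+/+ libraries.

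None of the fibril-forming genes passed the test between diets in Mof+/+. Col1a1 was at 427.6 to 568.5 CPM on SD and at 469.7 and 536.3 on HFD (0.14 ± 0.20, adjusted p = 0.694, edgeR), with an interval from 0.797-fold to 1.52-fold. Col1a2 and Col3a1 had negative values of -0.23 ± 0.22 and -0.25 ± 0.22 (adjusted p = 0.537 and 0.504, edgeR). HFD values of Col3a1, at 1370 and 1706 CPM, were below the 1805 to 2275 CPM of SD. With TMM scaling the groups overlapped, at 1292 and 1611 on HFD against 1510 to 1991 on SD. Col5a1, Col5a2 and Col6a3 had log2 fold changes of 0.22, -0.09 and 0.15, and their groups overlapped.

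In Mof+/+ edgeR called 0 of the 8 between diets, where it called 9.75% of 14939 genes, and 2 had an unadjusted p below 0.05, where 28.4% of genes did. With length and GC offsets, Col6a2 was called (0.87, adjusted p = 0.0382, edgeR), where 6.85% of genes were, and all 8 genes were on the higher side on HFD. CPM values did not overlap in 3 of the 8 (Col6a1 and Col6a2 higher and Col3a1 lower on HFD), where 49.1% of all genes did not. The median of the 8 was 0.14, against -0.04 over all genes. The 8 macrophage markers summed to 905 to 1620 CPM on SD and to 4000 and 5100 on HFD, with 5 called higher, 1 lower and none at 0. Fibroblast markers summed to 13300 to 14800 and to 7860 and 7950 CPM, with 1 of 10 called lower and none at 0. Endothelial markers summed to 1310 to 2950 and to 582 and 657 CPM, and mural markers to 1250 to 1610 and to 546 and 793 CPM, with 3 of 8 called lower in each list. Glial markers summed to 136 to 1050 and to 92.2 and 95.1 CPM, with 2 of 6 tested called lower. Their part in these values was not tested.

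Between diets in Mof+/-, edgeR called 0 of the 8 and 0.0% of 13610 genes, and DESeq2 called 0 of the 8 and 2.95% of genes. No member had an unadjusted p below 0.05, where 8.57% of genes did. Of the fitted values, 7 were negative, from -0.62 for Col1a2 to -1.15 ± 0.77 for Col5a2, and that of Col6a3 was 0.24 ± 0.65. The median of the 8 was -0.78, against -0.26 over all genes, and it was -0.33 against -0.18 without HFD Mof+/- replicate 1 and -0.47 against -0.2 without SD Mof+/- replicate 1. In CPM only Col6a2 did not overlap, at 605.1 to 728.9 CPM on SD against 174.3 and 519.5 on HFD, where 27.6% of all genes did not. With TMM scaling Col6a1 did not overlap either, at 547.3 to 970.4 on SD against 254.1 and 497.4 on HFD. Without HFD Mof+/- replicate 2, which leaves replicate 1 alone with 23 counts of Col5a2 and takes the spread from the SD libraries, Col5a2 was called lower (-3.08, adjusted p = 0.0496, edgeR), where 13.8% of genes were called and the median over all genes was -1.38, and without replicate 1 no member was called and Col5a2 came to -0.41. Mature adipocyte markers summed to 39900 to 47600 CPM on SD and to 11500 and 28300 on HFD, and fibroblast markers to 14400 to 17100 and to 3360 and 15400 CPM, with 0 called by edgeR and 1 of 8 and 5 of 10 at an unadjusted p below 0.05. Their part in these values was not tested.

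The genotype by diet interaction asks whether the genotype difference on HFD departs from that on SD. Its fitted values were negative for 7 of the 8 and lowest for Col6a2 (-1.58 ± 0.54, adjusted p = 0.294, edgeR) and Col6a1 (-1.40 ± 0.53, adjusted p = 0.33, edgeR). For these 2 the unadjusted p was below 0.05, where 12.4% of genes had one. No member was called by edgeR, where 0.0881% of 15897 genes were, or by DESeq2, where 3.09% were. Without HFD Mof+/- replicate 2, which takes the spread from the other 3 groups, Col5a1, Col5a2, Col6a1 and Col6a2 were called, where 17.7% of genes were and the median over all genes was -1.55. The median of the 8 was -0.89 against -0.41 over all genes, and -0.2 against -0.25 without replicate 1. Without replicate 1, Col6a2 came to -1.02 and Col6a1 to -0.96, and neither was called.

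Ratios of chains within a library do not depend on its total. The ratio of Col1a1 to Col1a2 counts stayed between 0.521 and 0.804, and it was lowest in the 3 SD Mof+/+ libraries except for HFD Mof+/- replicate 2 (0.569) and SD Mof+/- replicate 3 (0.573), which lay below the 0.574 of SD Mof+/+ replicate 2. The ratio of Col5a1 to Col5a2 ran from 0.935 to 1.74, at 1.3, 1.2 and 1.09 in SD Mof+/+, 1.09, 0.935 and 1.03 in SD Mof+/-, 1.74 and 1.29 in HFD Mof+/+, and 1.26 and 1.41 in HFD Mof+/-. Col6a1 and Col6a2 were close to parity in counts, from 0.76 to 1.24.

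Col6a3 did not keep pace with the other type VI chains. The ratio of Col6a2 to Col6a3 counts was 1.77, 2.09 and 2.09 in SD Mof+/+, and 2.14, 4.52 and 4.83 in SD Mof+/-. On HFD it was 3.45 and 2.19 in Mof+/+, and 1.82 and 1.35 in Mof+/-. The span from the lowest to the highest library was 3.58-fold, against 1.63-fold for Col6a1 to Col6a2. The longest transcript of Col6a3 has 10106 bases and those of Col6a1 and Col6a2 have 4100 and 4912, and the highest ratios were in SD Mof+/- replicates 2 and 3, where the correlation with gene length was -0.15 and -0.29. HFD Mof+/- replicate 2 had a correlation of -0.14 with the lowest ratio. The part of gene length in this ratio was not tested. Col3a1 to Col1a1 spanned 3.52-fold, from 1.26 in HFD Mof+/- replicate 1 to 4.43 in SD Mof+/+ replicate 2.

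**Figure D4:**
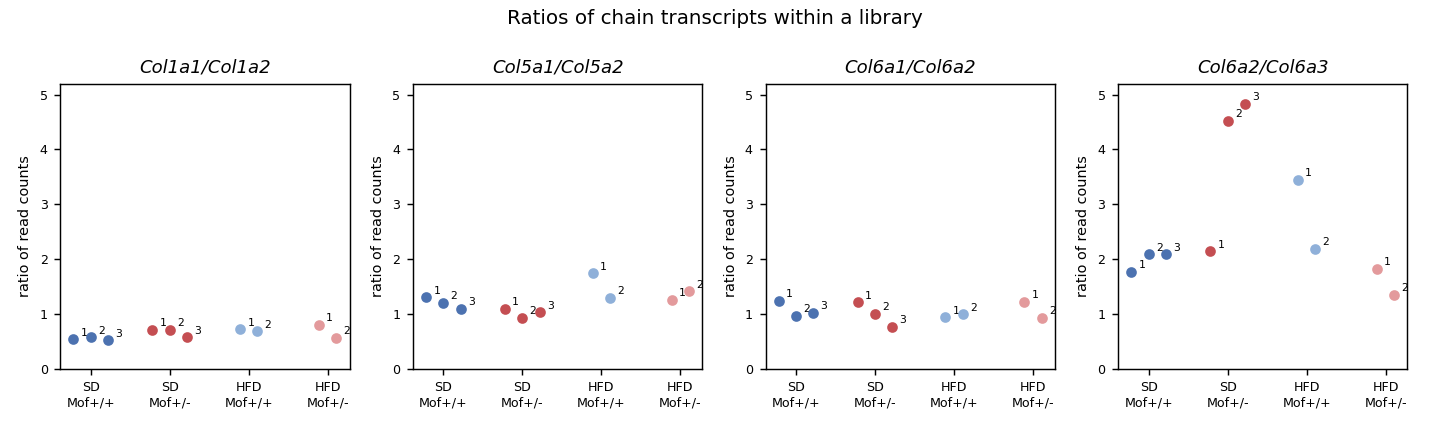
Ratio of read counts of chain pairs in each library (y axis, no length correction), with points numbered by replicate. The first 3 pairs stay below 1.8 in every library, whereas Col6a2/Col6a3 reaches 4.52 and 4.83 in SD Mof+/- replicates 2 and 3.

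Across the 10 libraries, Pearson's r of log2 CPM between pairs of members ran from 0.44 for Col6a2 with Col6a3 to 0.97 for Col3a1 with Col5a2 and for Col5a1 with Col5a2. It was 0.93 for Col6a1 with Col6a2, 0.86 for Col1a1 with Col1a2 and 0.61 for Col1a1 with Col5a1. These are descriptions over 10 libraries that share depth and tissue composition. Without HFD Mof+/- replicate 1, Col3a1 with Col5a2 came to 0.92 and Col6a1 with Col6a2 to 0.84, while Col1a2 with Col5a1 came to 0.34, Col6a2 with Col6a3 to 0.0 and Col6a2 with Col3a1 to -0.05. Outside the members, the 10 genes most like the mean of the 8 were Pja1 (r = 0.981), Mill2, Golga2, Lgals8, Kif3a, Esf1, Qars, Dnajc14, Adam33 and Syne3 (0.947), of which Pja1, Mill2 and Kif3a stayed among the first 10 without that library.

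Genes that process, bind or cleave these collagens were followed in 7 lists of 107 genes. Between genotypes on SD, edgeR called 8 of the 97 tested higher and 3 lower in Mof+/-, against the 5.24% of all genes given above, and all 11 were also called by DESeq2. Among proteins that bind fibrils, 4 of 16 were higher and none lower. Fbln1, fibulin-1, was at 56.5, 58.6 and 59.4 CPM in SD Mof+/+ and at 248, 229 and 207 CPM in SD Mof+/- (log2 fold change 2.33 ± 0.21, adjusted p = 0.00475, edgeR). Dpt, dermatopontin, which binds collagen fibrils, was higher by 1.60 ± 0.24 (382 to 525 against 970 to 1070 CPM). Lum, the fibril-spacing proteoglycan lumican, was higher by 1.21 ± 0.25, and Mfap5, a microfibril protein, by 1.13 ± 0.25.

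Pcolce2, an enhancer of the removal of collagen propeptides, was at 16.6, 22.5 and 17.6 CPM in SD Mof+/+ and at 78.5, 82.2 and 71.2 CPM in SD Mof+/- (2.39 ± 0.25, adjusted p = 0.00606, edgeR). It was the only one called of 13 genes for propeptide removal and cross-linking. Of 9 proteases and inhibitors, the gelatinase Mmp9 (2.30 ± 0.42) and the membrane collagenase Mmp14 (1.26 ± 0.29) were higher. Of 10 other collagens, Col14a1, which is associated with fibrils, was higher (1.70 ± 0.38) and Col8a1, a short-chain collagen, lower (-4.60 ± 1.06), from 10.6 to 56.2 CPM in SD Mof+/+ to 1.98, 0.576 and 0 in SD Mof+/-. Of 21 genes for TGF-beta and PDGF signals, Pdgfrb (-1.46 ± 0.29) and its ligand gene Pdgfb (-2.01 ± 0.42) were lower and none was higher. EdgeR called 0 of 17 genes for collagen modification and folding and 0 of 11 receptors, of which 4 and 5 had an unadjusted p below 0.05, where 25.7% of all genes did.

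With 1 library left out, calls over all genes ranged from 17 to 1026 in place of 727, while the log2 fold changes of the 11 list genes stayed between 0.72 and 1.31 times their values with all libraries. Of the 11, only Fbln1 was still called without SD Mof+/+ replicate 1 or without SD Mof+/- replicate 2 (19 and 17 calls over all genes), and only Fbln1 and Pcolce2 without SD Mof+/+ replicate 2 or replicate 3 (35 and 74 calls). Without SD Mof+/- replicate 1 or replicate 3 it was 8 or 10. By the column headings 0 of the 11 were called.

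**Figure D5:**
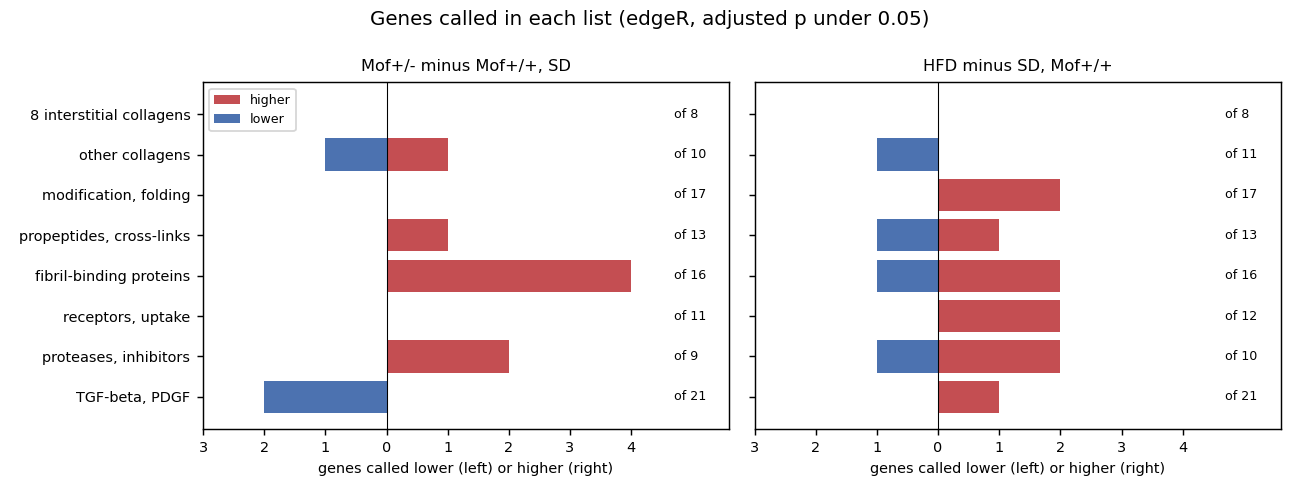
Number of genes called lower (left of 0) or higher (right of 0) in each list, between genotypes on SD and between diets in Mof+/+, with the number tested at the right. All calls drawn are by edgeR. By this test none of the 8 interstitial collagens is called in either panel, and fibril-binding proteins hold the most calls on SD (4 of 16).

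Between diets in Mof+/+, edgeR called 10 of 100 list genes higher and 4 lower on HFD, where 9.75% of all genes were called, and DESeq2 also called all 14. Of 17 genes for modification and folding, Serpinh1, which encodes the collagen chaperone HSP47 and was at 482 to 534 CPM on SD and at 1040 and 764 on HFD, was higher by 0.95 ± 0.20, and the collagen galactosyltransferase gene Colgalt1 by 0.82 ± 0.19. Of 12 receptors, the uptake receptor gene Mrc2 was higher by 2.12 ± 0.24 (30.1 to 48.5 against 160 and 178 CPM) and the leukocyte receptor gene Lair1 by 3.70 ± 0.58. Of 10 proteases and inhibitors, the collagenolytic cathepsin gene Ctsk was higher by 3.24 ± 0.28 (25.1 to 38.2 against 220 and 357 CPM), Timp1 was higher by 3.66 ± 0.48, and Timp3, also an inhibitor of metalloproteinases, was lower (-1.34 ± 0.23).

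The remaining calls between diets in Mof+/+ were in 4 lists. Pcolce2 was higher by 2.42 ± 0.25 and the propeptide protease gene Tll1 lower (-3.26 ± 0.76), of 13 genes. Of 16 fibril-binding proteins, Prelp (1.38 ± 0.27) and Mfap5 (1.38 ± 0.27) were higher and Ogn (-1.31 ± 0.25) lower. Col6a6, a further type VI chain gene, was the only one called of 11 other collagens (-1.35 ± 0.25). Pdgfa, which encodes a PDGF ligand, was higher (1.22 ± 0.25), of 21 signal genes. Pcolce2 and Ctsk were called in each fit that left out 1 library. Over all genes, calls ranged from 64 to 2230 in these fits in place of 1457, and the log2 fold changes of the 14 list genes stayed between 0.7 and 1.25 times their values with all libraries. Of the 14, 2 were still called without HFD Mof+/+ replicate 2 (these 2 genes, with 64 calls over all genes), 6 without HFD Mof+/+ replicate 1, 4 without SD Mof+/+ replicate 1, 9 without SD Mof+/+ replicate 2 and 14 without SD Mof+/+ replicate 3. By the column headings 0 of the 14 were called.

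In the comparisons with HFD Mof+/-, edgeR called 0 of the 97 list genes between genotypes on HFD and 0 of 94 between diets in Mof+/-, where 0.0% of all genes were called in both. DESeq2 called 1 and 7 of them, where it called 1.48% and 2.95% of all genes. In the interaction edgeR called 1 of 101, where 0.0881% of all genes were called. Fbln1 was higher in Mof+/- on SD and was at 56.4 and 55.6 CPM in HFD Mof+/+ and at 19.2 and 10.8 CPM in HFD Mof+/- (interaction -4.06 ± 0.48, adjusted p = 0.00669, edgeR). It was not called without SD Mof+/+ replicate 1, HFD Mof+/+ replicate 1 or HFD Mof+/+ replicate 2 (adjusted p = 0.0507 to 0.0519, edgeR), where its log2 value stayed at -3.99, -4.01 and -4.01. Grouped by the column headings, it came to -2.41 with an adjusted p of 0.587 (edgeR).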

How the data were processed

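Visceral WAT poly(A) RNA was sequenced without strand information in 10 libraries. The authors aligned reads with STAR on GRCm38 and counted them with featureCounts (Subread 1.5.0-p1). They deposited 1 table per library, holding whole-number counts that were not normalized, of 1044355 to 17171947 in all. The release of their annotation is not given in the sources used here. Of 47937 identifiers, 47224 were matched to GENCODE M21 symbols with the version ignored. Groups came from the sample labels.

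CPM scales counts to a total of 1000000 on genes. Each comparison of 2 groups used edgeR 4.0.16 with filterByExpr and TMM scaling (quasi-likelihood test, Benjamini-Hochberg adjustment over all genes tested, threshold 0.05), on its own libraries, and the interaction used all 10. Intervals cover 95%, and those of counts cover counting error only. The procedure was tested on simulated data. The members and lists were chosen with earlier results of these data known. Every gene of a pathway list past the threshold was named where at most 4 passed, as was the case in all 7 lists, with the 10 genes most like the members and Kat8, and cell type markers were given as sums and counts. 1 list gene is not reported here and was left out of the list counts.

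The alternatives were DESeq2 1.42.0 (the authors used DESeq2 1.26), its size factors, library totals, TMM without muscle and mitochondrial genes, no filter, at least 10 counts in every library, the replicate block, 1 fit of all libraries, length and GC offsets, the column headings, and each library left out. Levels by longest transcript and totals without mitochondrial and muscle genes were added after seeing the data. R 4.3.3 and Python 3.11.15 were used.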

Additional observations from a re-analysis of the deposited data

Results flagged for a closer look

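Fbln1 was listed for a closer look because its genotype difference on HFD departed from that on SD by a test of the interaction (log2 -4.06), with 0 of the 8 collagens past the same test. Without SD Mof+/+ replicate 1, HFD Mof+/+ replicate 1 or HFD Mof+/+ replicate 2 its adjusted p was 0.0507, 0.0512 and 0.0519 (edgeR), with log2 values of -3.99, -4.01 and -4.01. Grouped by the column headings, its log2 value was -2.41 with an adjusted p of 0.587 (edgeR). The SD Mof+/- libraries alone had Xist and no Y-linked counts, so the interaction and the sex of these mice cannot be told apart.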

How the results depend on the processing

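By edgeR 0 of the 8 collagens were called in each of the 5 comparisons. On SD DESeq2 and the length and GC offsets each called 1 (Col6a2). In Mof+/+ between diets DESeq2 called 2 and the offsets 1. With 1 library left out, 0 to 6 were called between genotypes on HFD, 0 to 1 between diets in Mof+/- and 0 to 4 in the interaction, with the highest counts without HFD Mof+/- replicate 2 and 1 in the HFD comparison without replicate 1. Replicate numbers did not pair libraries (correlation of deviations -0.043 to 0.032), and a replicate block called 0 members in all 5 comparisons and, of all genes, 428 in place of 727 on SD, 200 in place of 0 on HFD, 1460 in place of 1457 between diets in Mof+/+, 245 in place of 0 between diets in Mof+/- and 10 in place of 14 in the interaction. With the block Col6a3 turned to -0.095 on SD, -0.03 on HFD and -0.079 in Mof+/- between diets.

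Apart from the fits with 1 library left out, other alternatives turned further directions, none with a called value. On SD, library totals gave Col1a2 -0.128, Col3a1 -0.201, Col5a2 -0.123 and Col6a3 -0.299, and Col5a1 came to 0.015 with no filter, 0.0 in 1 fit of all libraries, 0.456 with the offsets and 0.173 by the column headings. On HFD, Col1a2 came to 0.137 with the offsets and Col6a3 to -0.049 with library totals. In Mof+/+ between diets the offsets gave Col1a2 0.118, Col3a1 0.007 and Col5a2 0.13. In the interaction, Col6a3 came to -0.179 with the offsets and -0.119 by the headings. By the headings Fbln1 came to -2.412 in the interaction (adjusted p = 0.587, edgeR). The cause was not tested.

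Leaving out 1 library moved the log2 fold change on SD from -0.21 to 0.476 for Col3a1, -0.536 to 0.288 for Col5a1, -0.221 to 0.513 for Col5a2 and -0.526 to 0.29 for Col6a3, with the lowest values without SD Mof+/- replicate 1. On HFD it moved from -0.674 to 0.264 for Col1a2, -1.757 to 0.272 for Col3a1 and -0.992 to 0.794 for Col6a3. In Mof+/+ between diets the range was -0.215 to 0.032 for Col5a2 and -0.006 to 0.329 for Col6a3. In Mof+/- between diets it was -2.787 to 0.041 for Col5a1 and -0.948 to 0.841 for Col6a3. In the interaction it was -0.968 to 0.033 for Col1a2, -1.967 to 0.126 for Col3a1 and -1.112 to 0.733 for Col6a3. Col1a1 on SD kept its direction and came to 0.192 with library totals, 0.954 with the offsets and 0.325 without SD Mof+/- replicate 1. Col6a1 and Col6a2 kept their direction in each of the alternatives run but not their size. On SD library totals gave 0.315 and 0.416, and Col6a1 came to 0.422 without SD Mof+/- replicate 1. Without 1 library they ranged from -1.251 to -0.288 and -1.589 to -0.238 on HFD, and from -1.499 to -0.533 and -1.792 to -0.437 between diets in Mof+/-. At 1044355 counts, HFD Mof+/- replicate 1 had 23 to 362 counts per member, which limits each comparison that uses it.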
